A study of Mus musculus with 12 samples.

Results

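The genes described here encode heat shock proteins and chaperonins of cultured mouse keratinocytes. They were taken from the deposited count table by name: protein-coding genes beginning with Hspa, Hspd, Hspe, Hsph, Hsp90, Dnaja, Dnajb, Dnajc or Cct2 to Cct8 and a number, plus Tcp1, and leaving out Hspa5. This rule uses no measured value and found 72 of the 54532 genes in the table. They comprised 3 HSP90 genes, 13 HSP70 and HSP110 genes, 2 mitochondrial chaperonin genes, 4 DnaJ genes of class A, 13 of class B and 28 of class C, and 9 genes of the CCT ring family. Of these, 63 had enough counts to be tested. Among the 9 left out, Dnajb3, Dnajb7, Dnajb8, Dnajc5g, Dnajc6 and Cct8l1 had 0 counts in all 12 libraries, and Dnajb13, Dnajc12 and Dnajc5b had few. Cct6a, a further subunit of the CCT ring, is typed in the table as a processed transcript and so fell outside the rule.

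The 12 libraries came from keratinocytes of the genotype WT DP-BirA(1-584), in which residues 1 to 584 of desmoplakin, a desmosome protein, are fused to the biotin ligase BirA. All 4 groups carried the fusion, reached confluence without calcium, and then received calcium (1.2 micromolar as the labels give it) and 2 µg/mL doxycycline, which switched the fusion on. Cells were scratch wounded or left unwounded and given biotin for 16 h, so that material near the fusion protein became biotinylated. The translating part of a sucrose gradient was passed over neutravidin: RNA held by the resin is the cortical fraction, and RNA of the depleted remainder is the total fraction. Each pairing of fraction and treatment was sequenced in 3 libraries. The titles number the libraries as biological replicates, but do not say whether these were separate cultures, so p-values here measure the spread between these libraries. A scratched culture holds cells near and far from the wound, and fewer cells of a state cannot be told apart from less RNA per cell. No mock pull-down and no cells without the fusion were analysed here.

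Chaperones of these families help other proteins reach and keep their folded shape. HSP70 proteins bind exposed hydrophobic stretches in cycles of ATP hydrolysis. DnaJ proteins bring clients to HSP70 and trigger hydrolysis, HSP110 proteins release the nucleotide, HSP90 finishes the folding of kinases and receptors, and the barrel-shaped chaperonins enclose clients, the CCT ring taking actin and tubulin. In keratinocytes, whose shape rests on keratin, actin and desmosomes, chaperones serve both routine synthesis and the response to stress, which heat shock factors drive through promoter sites called heat shock elements.

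Library totals ran from 8980013 to 23457548 counts, and scaling factors from 0.831 to 1.10. Keratinocyte markers summed to 8166 to 9391 CPM (counts scaled to a common library size) in unwounded total, 12699 to 12821 in unwounded cortical, 14479 to 17242 in wounded total and 17938 to 18345 in wounded cortical libraries. The groups thus did not overlap in this sum, most of which is Krt5 and Krt14, with means of 4079 and 4489 CPM in unwounded total libraries. Single markers did not all follow it. Krt10 alone had lower cortical means, at 22.7 in unwounded total and 18.8 in unwounded cortical, and 31.5 and 23.0 in the wounded groups. The part of these markers in the other results was not tested. In no library did the summed CPM exceed 6.47 for fibroblast, 2.27 for melanocyte, 0.285 for immune and 1.87 for endothelial markers. Thy1, Tyr, Adgre1 and Cdh5 were at 0 in all libraries. Dsp, the gene of the fusion partner, was higher in the cortical fraction by a log2 fold change of 0.52 (adjusted p = 0.00348) in unwounded and 0.39 (adjusted p = 0.0180) in wounded cells, although reads of the endogenous gene and of the construct cannot be told apart. Replicate 1 of the wounded total group stood apart: it had counts for 13117 genes, while the other 11 libraries had at least 14393. Its rank correlation with its group was 0.962 and 0.966, and results are therefore also given without it. Of 1063 genes that the other wounded total libraries place at 10 to 20 counts in it, 41.2% were at 0.

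Levels between genes are compared per length, with the deposited FPKM values (fragments scaled to merged exon length and library size). Averaged over the 12 libraries, Hsp90ab1, the constitutive cytosolic HSP90, was highest at 1131 FPKM. Next over all libraries came Hspe1, the small co-chaperonin of mitochondria, at 422, Hspa8, the constitutive cytosolic HSP70, at 400.4, and Hspd1, the mitochondrial chaperonin HSP60, at 309. This order differed by fraction: Hspe1 stood above Hspa8 in unwounded total (549 and 362 FPKM) and wounded total groups (489 and 440.3), and below it in unwounded cortical (341 and 403) and wounded cortical groups (308 and 396). The CCT subunits Cct5, Cct2 and Cct8 lay at 258, 251 and 243 FPKM. Of the genes known to be induced by stress, Hsp90aa1 averaged 51.7 FPKM, Dnajb1 35.8, Hspa1b 6.46, Hsph1 1.95 and Hspa1a 0.367. Hspa1a and Hspa1b are near-identical copies, so the division of reads between them is uncertain. Together the 72 genes took 1.19% ± 0.0562 (SD, n = 3) of all counts in unwounded total, 1.44% ± 0.00583 in unwounded cortical, 1.29% ± 0.0821 in wounded total and 1.43% ± 0.0177 in wounded cortical libraries. After TMM scaling their summed CPM was 11758 to 12853 in unwounded total and 13063 to 13192 in unwounded cortical libraries. In wounded cells the scaled sums overlapped, at 13098 to 15001 in total and 13534 to 13676 in cortical libraries, with the mean of the total group higher, the reverse of the raw shares.

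The comparison of cortical with total RNA asks which translated messages lie near the desmosomal fusion protein. In unwounded cells 9 of the 63 tested chaperone genes (14.3%) passed the test, 2 higher and 7 lower in the cortical fraction. Over all 13571 genes tested, 14.2% passed, 6.62% higher and 7.59% lower. Hspa4l and Dnajc14 were the higher genes, and Hspe1, Dnaja1, Dnajc2, Dnajc7, Dnajc9, Dnajc15 and Dnajc17 the lower. In wounded cells 13 of 63 (20.6%) passed, 5 higher and 8 lower, where 15.7% of all genes passed, 7.62% higher and 8.03% lower. Here Hsp90b1, Hspa14, Dnajc13, Dnajc14 and Tcp1 were higher, and Hspe1, Dnaja1, Dnajb1, Dnajb2, Dnajc2, Dnajc8, Dnajc9 and Dnajc17 lower. The median log2 fold change of the 63 was 0.05 in unwounded and -0.03 in wounded cells, against 0.00 and 0.04 for all tested genes. These 2 comparisons share no library, but they come from 1 fit with a shared estimate of the spread. Of the genes lower in the cortical fraction, Hspe1, Dnaja1, Dnajc2, Dnajc9 and Dnajc17 were called in both (5 of the 7 and 5 of the 8), and of the higher genes Dnajc14 (1 of the 2 and 1 of the 5). The share of all tested genes called in both was not counted, so nothing particular to the members is read from this overlap.

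The split into higher and lower genes rests on the TMM scaling. Scaling by library size alone raised the median of all genes by 0.19 in unwounded and 0.21 in wounded cells, members and other genes alike. It gave 13 higher and 2 lower members in unwounded cells, beside 11.7% higher and 3.46% lower of all tested genes. In wounded cells it gave 12 higher and 4 lower members, beside 16.2% and 3.83% of all tested genes. Median-of-ratios (RLE) factors gave 3 higher and 6 lower members in unwounded cells, beside 7.15% and 7.01% of all tested genes. In wounded cells they gave 5 higher and 10 lower, beside 6.36% and 8.84%. In unwounded cells 4 members were called without replicate 2 of the unwounded total group, and 16 without replicate 1 of the wounded total group. That library is in neither group compared, but the shared fit and the filter changed without it: 64 members and 14073 genes were then tested, and 22.4% of all genes passed.

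**Figure D1:**
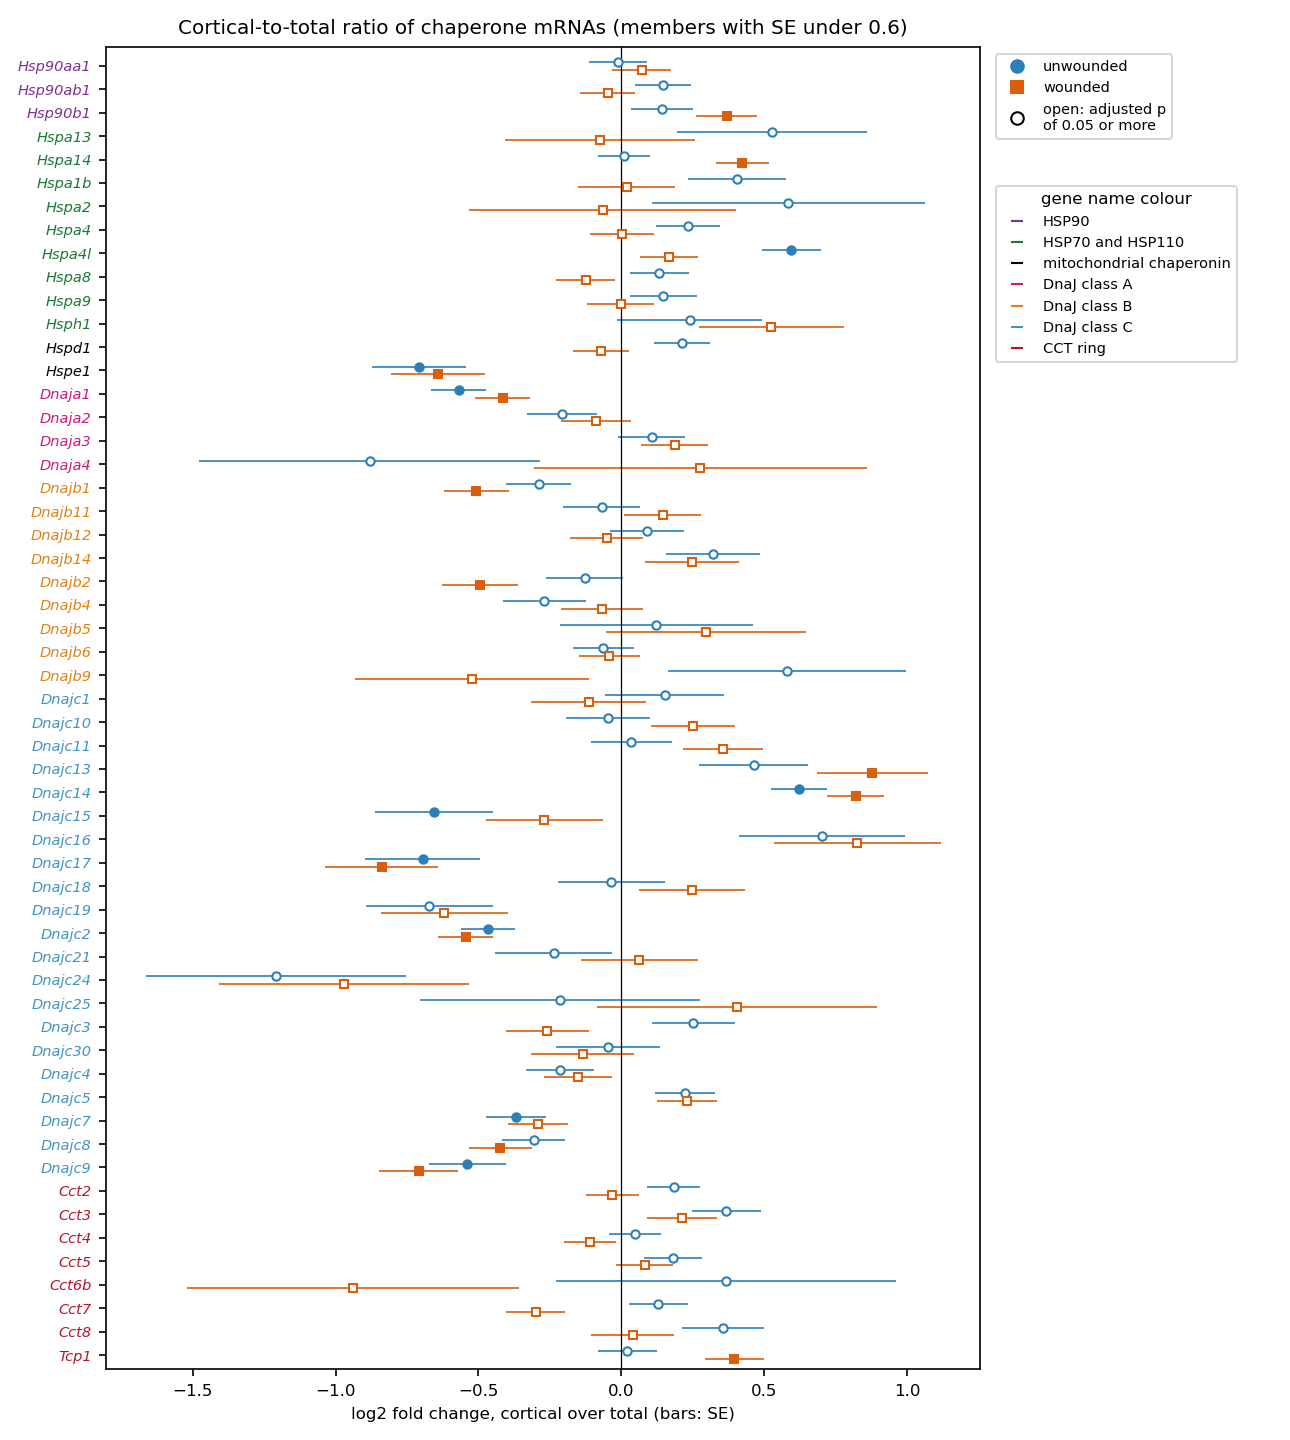
Log2 fold change of the cortical over the total fraction (horizontal axis, bars SE, 3 libraries a group) for the 56 members whose SE was under 0.6 in both comparisons, one line per gene with name colours marking the family. Filled blue circles (unwounded) and filled orange squares (wounded) passed the test: Dnajc14 stands to the right in both, and Hspe1, Dnaja1, Dnajc2, Dnajc9 and Dnajc17 to the left in both.

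In the mitochondrial chaperonin pair the messages of the barrel and of its lid were divided differently. Hspe1 encodes HSP10, the lid that closes HSP60. Its CPM was 737, 999.5 and 736 in unwounded total and 494, 541 and 478 in unwounded cortical libraries, and 505, 802 and 848 in wounded total and 472, 448 and 462 in wounded cortical libraries. Every cortical library lay below every total library of its treatment, and replicate 1 of wounded total lay nearest to the cortical values. Hspe1 thus fell by 0.71 on the log2 scale (SE 0.16, adjusted p = 0.00825, edgeR) in unwounded and by 0.64 (SE 0.16, adjusted p = 0.0151) in wounded cells. Without replicate 2 of unwounded total the unwounded adjusted p for Hspe1 was 0.0590. In wounded cells it was 0.0535 to 0.0625 without replicate 2 or 3 of either wounded group.

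Hspd1, the HSP60 barrel itself, had 702, 727 and 749 CPM in unwounded total, 837, 857 and 828 in unwounded cortical, 799.9, 908 and 948 in wounded total and 854, 849 and 823 in wounded cortical libraries. The unwounded groups did not overlap, with the cortical values higher, but the difference of 0.21 (SE 0.10, adjusted p = 0.177) missed the threshold. The wounded groups overlapped (log2 fold change -0.07, adjusted p = 0.689). The log2 ratio of Hspe1 to Hspd1 CPM was 0.17 ± 0.26 (SD, n = 3) in unwounded total and -0.74 ± 0.07 in unwounded cortical libraries. In wounded cells it was -0.33 ± 0.29 in total and -0.87 ± 0.04 in cortical libraries. This pair was chosen after its values were seen, and its ratio is given without a test.

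The pair lies head to head on chromosome 1 (GRCm38), Hspd1 on the minus strand at 55077835 to 55088243 and Hspe1 on the plus strand at 55088132 to 55091307. The annotated spans overlap, and the libraries do not mark strand. RefSeq places the start of Hspe1 216 bases from that of the Hspd1 transcript whose promoter window holds the match shown. A window here is 250 bases before to 50 after a start (RefSeq, GRCm38.p6), and 58 of the 72 genes had one. The heat shock element was searched as 13 letters in a row, GAA, NN, TTC, NN and GAA, where N is any base, and as the reverse complement, TTC, NN, GAA, NN and TTC. This reads both strands, and the forms can overlap. Exact matches were in windows of 4 of the 58 genes (6.90%), Hspd1, Hspe1, Dnajb6 and Hsph1, against 179 of 27025 genes in the whole table (0.662%). Hspd1 and Hspe1 share 1 stretch of 18 bases formed by 2 overlapping matches, 72 to 89 bases before the Hspe1 start and 127 to 144 before the Hspd1 start. It is shown on the strand of each gene because these neighbours differ in their cortical ratio. It also lies in the first exon, an untranslated one, of a longer Hspd1 transcript in GENCODE M21. The sequences read 5′ to 3′ with the matched letters in capitals.
Hspe1, chr1:55088053-55088082, plus strand: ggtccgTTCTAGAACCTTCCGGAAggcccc
Hspd1, chr1:55088053-55088082, minus strand: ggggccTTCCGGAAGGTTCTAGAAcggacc
Dnajb6, chr5:29735846-29735870, plus strand: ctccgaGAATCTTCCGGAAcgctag
Hsph1, chr5:149636282-149636306, minus strand: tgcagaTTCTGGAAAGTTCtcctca
The match in Hsph1, an HSP110 gene, lies 15 to 27 bases after 1 of its starts. Dnajb6, a suppressor of protein aggregation, passed in no comparison, and neither did Hsph1. A match is a description of letters and not a measured site, and genes without a match in this window may have one elsewhere.

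Of the 37 DnaJ genes among the 63 tested members, 7 passed in the unwounded and 9 in the wounded cortical comparison. Among all tested genes, 14.2% and 15.7% passed. In class C 1 gene was higher and 5 lower in unwounded cells, and 2 were higher and 4 lower in wounded cells. The called genes of classes A and B were lower. Dnaja1, a main cytosolic partner of HSP70, had 101, 98.9 and 106 CPM in unwounded total and 69.2, 72.2 and 64.6 in unwounded cortical libraries. After wounding it had 97.4, 96.6 and 92.5 in total and 72.8, 65.4 and 76.6 in cortical libraries. The fractions did not overlap in either treatment. Dnaja1 fell by 0.57 (SE 0.10, adjusted p = 0.00112) in unwounded and by 0.42 (SE 0.10, adjusted p = 0.00807) in wounded cells. The wounded adjusted p of Dnaja1 was 0.0505 without replicate 2 of wounded cortical, and 0.255 with scaling by library size alone. Of the other class A genes, Dnaja2, Dnaja3 and Dnaja4, none passed in any of the 5 comparisons.

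Dnajc9, a J protein that also handles histones, showed the lowest values in wounded cortical libraries. Its CPM was 49.0, 56.4 and 50.4 in unwounded total, 36.0, 34.8 and 36.4 in unwounded cortical, 32.2, 38.5 and 45.2 in wounded total and 26.5, 22.2 and 22.0 in wounded cortical libraries. Cortical libraries lay below total libraries in each treatment, and wounded below unwounded libraries in each fraction, with no overlap within these pairs of groups. Dnajc9 fell by 0.54 (SE 0.14, adjusted p = 0.0132) from total to cortical in unwounded and by 0.71 (SE 0.14, adjusted p = 0.00271) in wounded cells. With wounding it fell by 0.43 (SE 0.13, adjusted p = 0.0405) in the total and by 0.60 (SE 0.14, adjusted p = 0.0282) in the cortical fraction. Leaving out any 1 of the 6 cortical libraries took the cortical wound adjusted p of Dnajc9 to 0.0526 to 0.123. In the total fraction it was 0.0516 to 0.139 without any 1 of 9 libraries, all but replicate 3 of wounded total and replicates 1 and 2 of wounded cortical. In unwounded cells the cortical call ended without replicate 2 of unwounded total (0.0843) or of unwounded cortical (0.0506). Scaling by library size alone ended that call too.

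Dnajc17, a J protein with an RNA-binding domain found with splicing factors, had 30.8, 32.5 and 33.2 CPM in unwounded total and 24.7, 21.6 and 12.6 in unwounded cortical libraries. In wounded cells it had 42.2, 45.0 and 57.6 in total and 24.8, 32.6 and 23.8 in cortical libraries. Its fractions did not overlap in either treatment, and unwounded cortical replicate 3 was lowest. Dnajc17 fell by 0.69 (SE 0.20, adjusted p = 0.0280) in unwounded and by 0.84 (SE 0.20, adjusted p = 0.00932) in wounded cells. The unwounded call of Dnajc17 ended without any 1 replicate of unwounded total or without replicate 2 or 3 of unwounded cortical (adjusted p 0.0559 to 0.113). That call was also lost with scaling by library size alone.

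Further DnaJ genes were called in 1 treatment. Dnajc15, of the inner mitochondrial membrane, fell by 0.66 in unwounded cells (SE 0.21, adjusted p = 0.0438), with 15.4, 21.4 and 15.1 CPM in total and 9.38, 11.6 and 12.1 in cortical libraries. These values did not overlap, but leaving out any 1 of 8 libraries, among them all of the unwounded ones but replicate 3 of unwounded total, gave adjusted p of 0.0515 to 0.282 for Dnajc15. The Dnajc15 call also ended with RLE factors, with library size alone, without a filter and in the fits on FPKM values. Of 23 alternative settings, 10 kept it. In wounded cells, Dnajb1, the stress-inducible HSP40, had 116, 152 and 152 CPM in total and 92.0, 100.3 and 104 in cortical libraries. The groups did not overlap, and Dnajb1 fell by 0.51 (SE 0.11, adjusted p = 0.00703), a call lost with scaling by library size alone (0.0659). Dnajb2, a J protein with ubiquitin-binding motifs, had 62.1, 68.6 and 65.0 in wounded total and 44.3, 40.8 and 53.8 in wounded cortical libraries, again without overlap. It fell by 0.49 (SE 0.13, adjusted p = 0.0193), a call lost for Dnajb2 without replicate 2 of wounded total or replicate 1 or 2 of wounded cortical (adjusted p 0.0776 to 0.0930). With scaling by library size alone the adjusted p of Dnajb2 was 0.197. Dnajc7, which binds both HSP70 and HSP90, fell by 0.37 in unwounded cells (adjusted p = 0.0255), and Dnajc8, a J protein of the spliceosome, fell by 0.42 in wounded cells (adjusted p = 0.0159). Dnajc7 and Dnajc8 lie outside the naming rule and were chosen after their values were seen.

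On the higher side, Dnajc14, a J protein of the endoplasmic reticulum membrane, had the smallest adjusted p of all members in both cortical comparisons. Its CPM was 69.0, 62.8 and 65.7 in unwounded total, 104, 108 and 91.6 in unwounded cortical, 52.2, 51.7 and 57.9 in wounded total and 96.5, 92.1 and 96.9 in wounded cortical libraries. Every cortical library exceeded every total library. The log2 fold change of Dnajc14 was 0.62 (SE 0.10, adjusted p = 0.000741) in unwounded and 0.82 (SE 0.10, adjusted p = 0.000176) in wounded cells. Dnajc13, an endosomal J protein, had 13.4, 11.1 and 9.87 CPM in wounded total and 21.9, 23.1 and 18.3 in wounded cortical libraries, which did not overlap, and was higher by 0.88 (SE 0.19, adjusted p = 0.00619). In unwounded cells the groups of Dnajc13 did not overlap either, at 12.2 to 19.3 and 19.8 to 25.0 CPM, but its difference of 0.46 missed the threshold (SE 0.19, adjusted p = 0.124).

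Dnajc2 and Hspa14 encode the partners of the ribosome-associated chaperone complex, which meets nascent chains at the tunnel exit. Dnajc2 had 104, 111 and 116 CPM in unwounded total and 81.1, 82.5 and 75.6 in unwounded cortical libraries, and 103, 99.2 and 112 in wounded total and 73.0, 74.0 and 68.0 in wounded cortical libraries. Hspa14 had 94.1, 92.2 and 102 in unwounded total, 101, 97.1 and 91.9 in unwounded cortical, 81.8, 81.1 and 80.6 in wounded total and 107, 115 and 105 in wounded cortical libraries. The fractions of Dnajc2 were apart in both treatments with the cortical values lower, while those of Hspa14 overlapped in unwounded cells and were apart in wounded cells with the cortical values higher. Dnajc2 fell by 0.47 (SE 0.10, adjusted p = 0.00380) in unwounded and by 0.55 (SE 0.10, adjusted p = 0.00146) in wounded cells. With scaling by library size alone the unwounded adjusted p of Dnajc2 was 0.111. Hspa14 was higher by 0.42 (SE 0.09, adjusted p = 0.00570) in wounded cells and differed by 0.01 (SE 0.09, adjusted p = 0.970) in unwounded cells. The difference between these treatments for Hspa14, 0.41 (SE 0.13), had an adjusted p of 0.348. As a description of a pair chosen after its values were seen, the log2 ratio of Hspa14 to Dnajc2 was -0.20 ± 0.07 (SD, n = 3) in unwounded total, 0.28 ± 0.04 in unwounded cortical, -0.36 ± 0.10 in wounded total and 0.60 ± 0.05 in wounded cortical libraries.

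**Figure D2:**
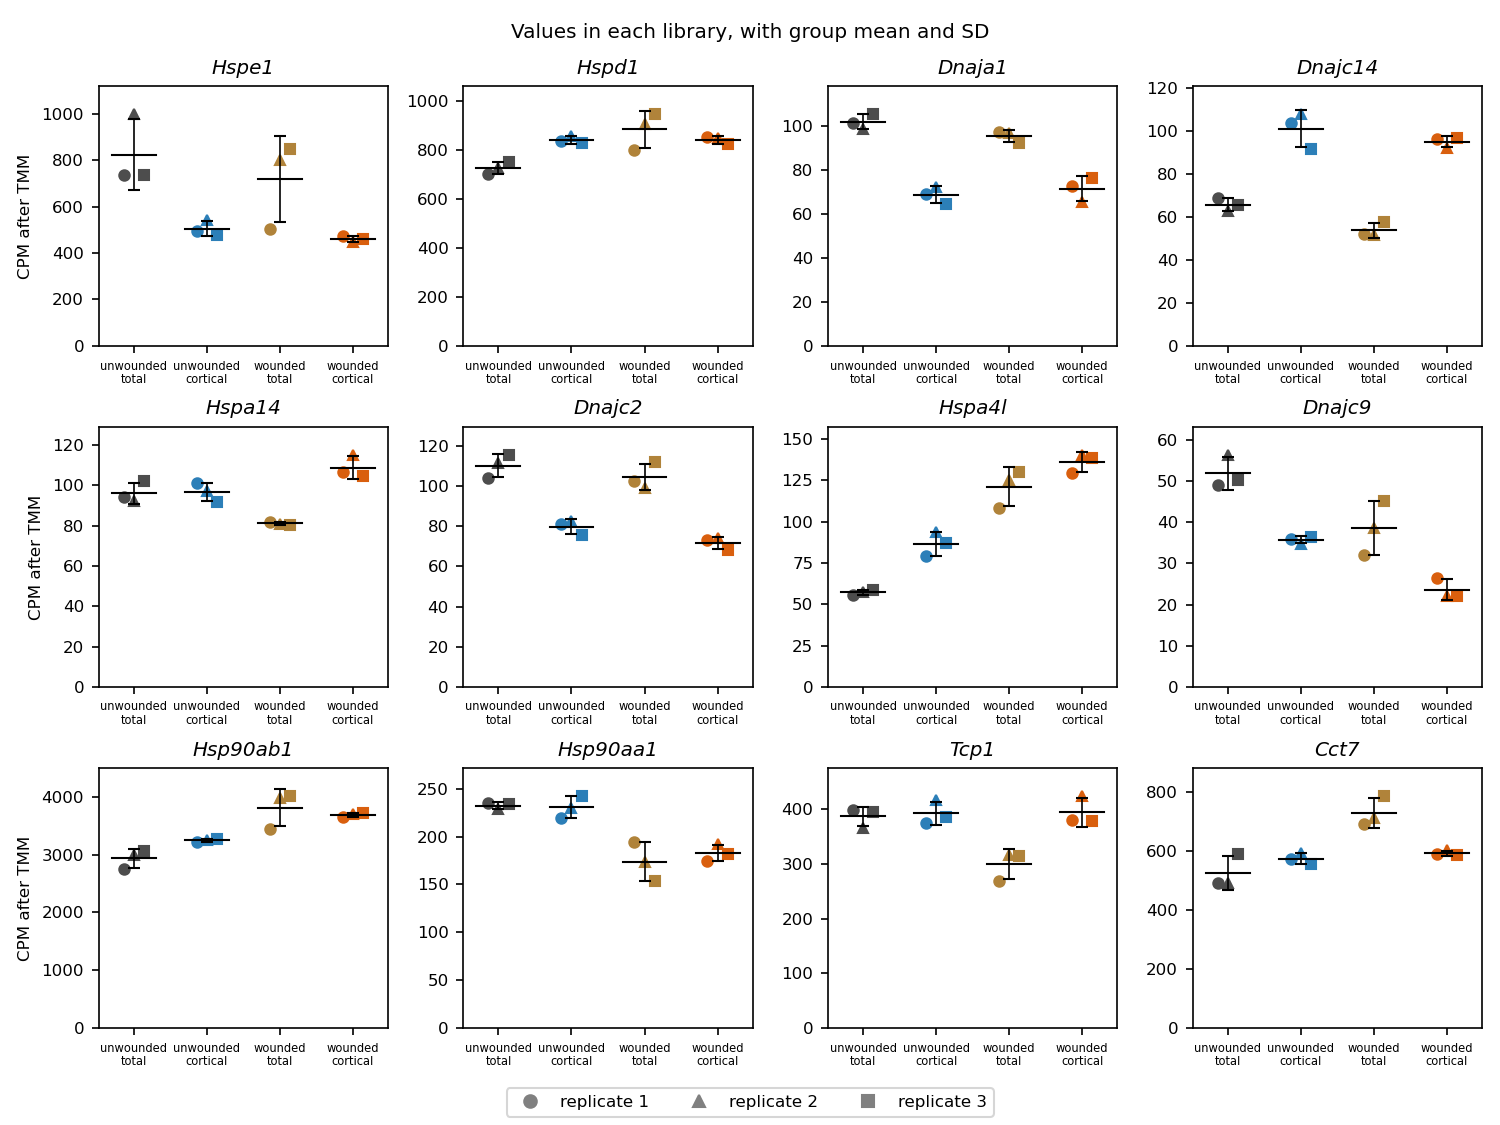
CPM after TMM scaling in each of the 12 libraries for 12 members (vertical axes from 0, marker shape the replicate, lines and bars the group mean and SD, n = 3). Cortical libraries lie below total libraries for Hspe1, Dnaja1, Dnajc2 and Dnajc9 and above them for Dnajc14, and Hspa4l is highest in the wounded groups.

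The second question of the design is what scratch wounding changed within each fraction. In total RNA 11 of 63 members (17.5%) passed, 7 higher and 4 lower, beside 15.6% of all tested genes, 8.39% higher and 7.20% lower. Hsp90ab1, Hspa4, Hspa4l, Dnajb2, Dnajc1, Cct4 and Cct7 were higher, and Hsp90aa1, Dnajb5, Dnajc9 and Tcp1 lower. In cortical RNA 3 of 63 (4.76%) passed, beside 2.48% of all tested genes, 1.60% higher and 0.884% lower. Hspa4l was higher there, and Dnajc9 and Hspa12b lower, the last from very few counts. Median log2 fold changes of the 63 were 0.00 in total and -0.01 in cortical RNA, against -0.03 and 0.02 for all tested genes. The 2 wound comparisons share no library, and Hspa4l (1 of the 7 and 1 of the 1 higher) and Dnajc9 (1 of the 4 and 1 of the 2 lower) were called in both. The share of all tested genes called in both was not counted here either.

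These counts moved with the scaling and with single libraries. RLE factors gave 10 higher and 3 lower members in total RNA, and library size alone gave 4 and 6, with 1 higher and 1 lower in cortical RNA. Without replicate 1 of wounded total, 21 members passed in total RNA, 13 higher and 8 lower, and 6 in cortical RNA, 1 higher and 5 lower. Over all genes, 24.9% and 9.07% passed in that fit. Leaving out replicate 1 of unwounded total gave 5 members in total RNA, and leaving out its replicate 2 or 3 or replicate 2 of wounded total gave 7. In cortical RNA only Hspa4l still passed when any 1 of the 6 cortical libraries was left out.

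**Figure D3:**
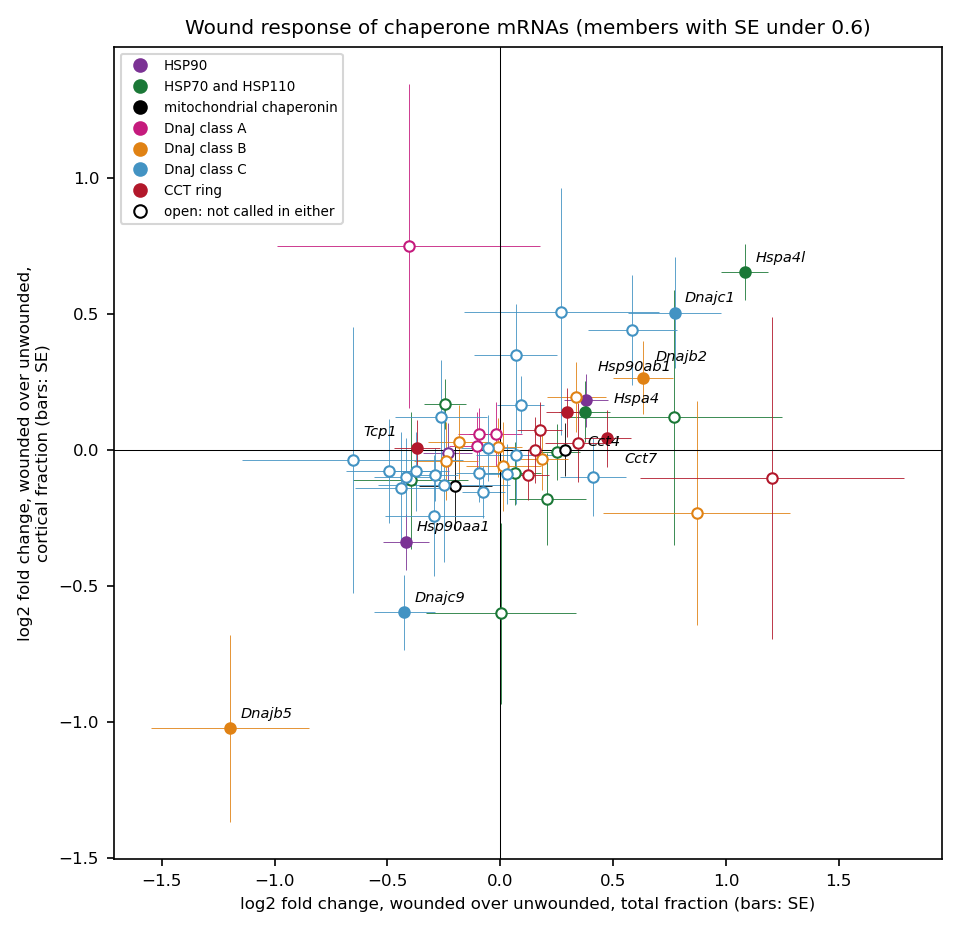
Log2 fold change with wounding in the total fraction (horizontal) and the cortical fraction (vertical, bars SE) for the 56 members whose SE was under 0.6 in both cortical comparisons, coloured by family and filled where called in either fraction. Hspa4l lies at the upper right and Dnajc9 at the lower left, while Hsp90ab1 and Hsp90aa1 lie on opposite sides of 0 on the horizontal axis.

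Hspa4l, an HSP110 protein that exchanges nucleotide on HSP70, was the member with the largest wound change among those called in both fractions. Its CPM was 55.6, 57.3 and 58.9 in unwounded total, 79.0, 93.8 and 86.9 in unwounded cortical, 108, 125 and 130.3 in wounded total and 129, 141 and 139 in wounded cortical libraries. Every wounded library exceeded every unwounded library, and in unwounded cells the cortical libraries exceeded the total ones. Hspa4l rose with wounding by 1.08 (SE 0.10, adjusted p = 6.1e-06) in total and by 0.66 (SE 0.10, adjusted p = 0.00274) in cortical RNA. It was higher in cortical than in total RNA by 0.60 (SE 0.10, adjusted p = 0.00126) in unwounded cells and by 0.17 (SE 0.10, adjusted p = 0.302) in wounded cells. The difference between these for Hspa4l, -0.43 (SE 0.14), had an adjusted p of 0.362, and of 0.0372 without replicate 1 of wounded total.

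Its paralog Hspa4 had 245, 252 and 313 CPM in unwounded total and 329, 358 and 362 in wounded total libraries, without overlap, and rose by 0.37 (SE 0.11, adjusted p = 0.0313). This call of Hspa4 was lost without replicate 1 or 2 of unwounded total, replicate 2 or 3 of wounded total or replicate 1 of wounded cortical (adjusted p 0.0503 to 0.166). Hsph1, the third HSP110 gene, ran from 10.6 to 17.7 CPM in unwounded total and 7.36 to 15.5 in wounded total libraries, which overlapped. Hspa8 had 1485, 1754 and 1517 CPM in unwounded total and 1709.5, 1938 and 2016 in wounded total libraries, which overlapped too (log2 fold change 0.25, SE 0.10, adjusted p = 0.115). Hspa9, the HSP70 of mitochondria, had 504, 496 and 596 CPM in unwounded total and 653, 509 and 506 in wounded total libraries, which overlapped, and passed in none of the 5 comparisons.

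Hspa1b, an inducible HSP70 gene, did not pass with wounding. It had 15.0, 14.1 and 18.1 CPM in unwounded total, 18.4, 19.6 and 24.6 in unwounded cortical, 19.3, 19.0 and 16.0 in wounded total and 20.6, 16.9 and 17.5 in wounded cortical libraries. The groups overlapped in both fractions, and the log2 fold change of Hspa1b with wounding was 0.21 (SE 0.17, adjusted p = 0.467) in total and -0.18 (SE 0.17, adjusted p = 0.659) in cortical RNA. Hspa1a reached at most 2.52 CPM in any library. Dnajb1 had 131, 121 and 118 CPM in unwounded total beside 116, 152 and 152 in wounded total libraries, with replicate 1 of wounded total below the unwounded range and the others above it. Its change was 0.19 (SE 0.11, adjusted p = 0.302), but without replicate 1 of wounded total Dnajb1 rose by 0.30 (SE 0.10, adjusted p = 0.0222) and Hsph1 fell by 0.76 (SE 0.23, adjusted p = 0.0165).

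The 2 cytosolic HSP90 genes moved in opposite directions in total RNA. Hsp90ab1, the constitutive form, had 2752, 2987 and 3061 CPM in unwounded total, 3212, 3249 and 3275 in unwounded cortical, 3448, 3975 and 4016 in wounded total and 3643, 3698 and 3721 in wounded cortical libraries. Every wounded library exceeded every unwounded one. Hsp90aa1, the stress-inducible form, had 235, 228 and 234 in unwounded total, 219.8, 229.6 and 243 in unwounded cortical, 195, 173 and 154 in wounded total and 174, 192 and 182 in wounded cortical libraries. For Hsp90aa1 every wounded library lay below every unwounded one. In total RNA Hsp90ab1 rose by 0.38 (SE 0.10, adjusted p = 0.0148) and Hsp90aa1 fell by 0.42 (SE 0.10, adjusted p = 0.0111). In cortical RNA the changes were 0.18 (adjusted p = 0.350) for Hsp90ab1 and -0.34 (adjusted p = 0.0911) for Hsp90aa1. The total-RNA call of Hsp90ab1 was lost without replicate 1 of unwounded total (adjusted p = 0.0765) or replicate 2 of wounded total (0.0520), and that of Hsp90aa1 without replicate 3 of wounded total (0.0518). The calls of both genes were also lost in a fit on only the groups compared, where the adjusted p of Hsp90ab1 was 0.127. The log2 ratio of Hsp90ab1 to Hsp90aa1, a pair chosen after its values were seen, was 3.66 ± 0.09 (SD, n = 3) in unwounded total and 4.46 ± 0.29 in wounded total libraries, and 3.82 ± 0.06 and 4.34 ± 0.06 in the cortical ones.

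Hsp90b1, the HSP90 of the endoplasmic reticulum, had 166, 139.9 and 149 CPM in wounded total and 187, 218 and 183 in wounded cortical libraries, without overlap. It was higher in the cortical fraction by 0.37 (SE 0.11, adjusted p = 0.0293), a call lost for Hsp90b1 without replicate 2 or 3 of wounded total or replicate 1 or 2 of wounded cortical (adjusted p 0.0582 to 0.143). In unwounded cells the groups overlapped, and the difference was 0.14 (SE 0.11, adjusted p = 0.470).

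Subunits of the CCT ring are joined in equal numbers in the assembled complex. Of the 8 tested genes of this family, Cct4 and Cct7 rose and Tcp1 fell with wounding in total RNA. Tcp1 was the 1 gene of the 8 with a negative log2 fold change, and the median of the 8 was 0.23. The 8 include the lowly counted Cct6b and leave out the subunit Cct6a, whose value was -0.06 (adjusted p = 0.726). Tcp1, the CCT1 subunit, had 399.5, 367 and 395 CPM in unwounded total, 375, 417 and 386 in unwounded cortical, 269, 317 and 314 in wounded total and 381, 425 and 379 in wounded cortical libraries. The wounded total libraries lay below all 9 others, which overlapped. Tcp1 fell by 0.37 with wounding in total RNA (SE 0.10, adjusted p = 0.0230) and was higher by 0.40 in cortical than in total RNA of wounded cells (SE 0.10, adjusted p = 0.0163). The first of these Tcp1 calls was lost without replicate 1 or 3 of unwounded total (adjusted p = 0.0891 and 0.0620), and the other without replicate 2 of wounded cortical (0.0846). Both Tcp1 calls were lost in fits on only the groups compared.

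Cct7 had 491, 492 and 591 CPM in unwounded total, 574, 594 and 554 in unwounded cortical, 689.5, 710.0 and 786 in wounded total and 589, 602 and 584 in wounded cortical libraries. For Cct7 it was the wounded total libraries that lay above all others. It rose by 0.47 in total RNA (SE 0.10, adjusted p = 0.00570) and by 0.04 in cortical RNA (adjusted p = 0.886). The total-RNA call of Cct7 was lost in a fit on only the groups compared (adjusted p = 0.0634). Cct4 had 368, 389 and 373 in unwounded total and 457, 480.4 and 449 in wounded total libraries, which did not overlap, and rose by 0.29 (SE 0.09, adjusted p = 0.0362). The call of Cct4 was lost without any 1 of the 11 libraries other than replicate 1 of wounded total (adjusted p 0.0561 to 0.136). The log2 ratio of Cct7 to Tcp1, again a pair chosen after its values were seen, was 0.43 ± 0.14 (SD, n = 3) in unwounded total, 0.55 ± 0.06 in unwounded cortical, 1.28 ± 0.11 in wounded total and 0.59 ± 0.07 in wounded cortical libraries.

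The other subunits, Cct2, Cct3, Cct5 and Cct8, passed in none of the 5 comparisons, nor did Cct6a, measured outside the rule, and Cct6b, a form with at most 4.04 CPM. Cct8 had 557, 579 and 736 CPM in unwounded total, 783, 808 and 803 in unwounded cortical, 597, 834 and 943 in wounded total and 817, 813 and 812 in wounded cortical libraries. Replicate 1 of wounded total lay within the unwounded total range of Cct8 and the other wounded total libraries above it. Without that library Cct8 rose with wounding in total RNA by 0.51 (SE 0.10, adjusted p = 0.000583).

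Further members changed with wounding, of which Dnajb5 and Hspa12b were lowly counted. Dnajb5, a cytosolic class B J protein, had 4.65, 8.52 and 7.60 CPM in unwounded total and 2.37, 2.92 and 3.74 in wounded total libraries, without overlap. It fell by 1.20 (SE 0.35, adjusted p = 0.0273), and the call of Dnajb5 was lost without replicate 2 or 3 of unwounded total or replicate 2 of wounded total (adjusted p 0.0747 to 0.112). Dnajc1, a J protein of the endoplasmic reticulum, had 14.7, 13.7 and 19.3 in unwounded total and 33.1, 22.5 and 25.7 in wounded total libraries, without overlap. It rose by 0.77 (SE 0.20, adjusted p = 0.0174), a call lost for Dnajc1 without replicate 1 or 2 of unwounded total (adjusted p = 0.0874 and 0.0884). Dnajb2 rose by 0.63 (SE 0.13, adjusted p = 0.00429), from 38.1, 42.7 and 45.5 CPM in unwounded total libraries. Hspa12b, a distant HSP70 relative known from endothelium, had 22, 11 and 6 counts in unwounded cortical and 0 in the 3 wounded cortical libraries. It had 8, 5 and 3 counts in unwounded total and 0, 1 and 2 in wounded total libraries. Set against a floor of 3 counts over the wounded cortical group, the unwounded cortical mean of Hspa12b was 16.2-fold higher. This ratio leaves out the spread of the unwounded cortical counts of Hspa12b. Its counts entered the test only because of the group where they were highest, and the call was lost without any 1 library except replicate 1 of wounded total (adjusted p 0.0656 to 0.154), so the values are given as a description. The endothelial marker Pecam1 lay between 0.274 and 1.87 CPM and Cdh5 at 0, and their part in these values was not tested.

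Whether the cortical share itself changed with wounding was asked with the interaction of fraction and treatment. None of the 63 members passed in edgeR, with 0.125% of all tested genes called, 0.0221% higher and 0.103% lower. With edgeR 6 members had an unadjusted p under 0.05, and DESeq2 also called 0. Hspa4l, Hspa14, Tcp1 and Cct7 had interaction values of -0.43, 0.41, 0.38 and -0.43, with SE of 0.13 to 0.15 and adjusted p of 0.348 to 0.450. Without replicate 1 of wounded total, Cct7 (-0.47, SE 0.13, adjusted p = 0.0446) and Hspa4l (-0.50, SE 0.13, adjusted p = 0.0372) passed, among 413 of all tested genes. A call in 1 treatment alone is therefore not shown here to differ from the other treatment.

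Short messages were lower in the cortical fraction among the chaperone genes as among all genes. Across the 63 members, the rank correlation of coding length with the cortical log2 fold change was 0.51 in unwounded and 0.42 in wounded cells, and over 11487 tested genes with a coding length it was 0.48 and 0.47. These are correlations across genes, which share the same libraries and are not replicates. Median coding length was 2311.5 bases for the higher, 909 for the lower and 1593 for the uncalled members in unwounded cells, and 2109, 940.5 and 1593 in wounded cells. Hspe1 has the shortest coding sequence of the tested members at 306 bases, and Dnajc13 the longest at 6744. Dnajc2, at 1863 bases, was lower although longer than the median of the uncalled members.

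In further fits a trend on gene length, which is merged exon length and not the coding length above, was removed from each library. The relation with coding length itself was not removed. In these fits 7 members were higher and 5 lower in unwounded cells, and 2 higher and 11 lower in wounded cells. With wounding in total RNA 13 were higher and 1 lower. Of all 13571 tested genes, 1443, 1459 and 2573 were called in these fits. Their split into higher and lower was not counted, so the direction of the member counts has no all-gene share beside it. After that step Hspe1 still fell in unwounded cells, by 0.44 (adjusted p = 0.0119), and Hspa4l was higher by 0.39 (adjusted p = 0.0254). Dnajc17 (adjusted p = 0.215) and Dnajc9 (adjusted p = 0.0605) lost the unwounded call, and Dnajc13 (0.0753), Tcp1 (0.0792) and Hsp90b1 (0.134) the cortical call in wounded cells. Hsp90aa1 (0.0659), Tcp1 (0.0681) and Dnajc9 (0.0540) lost the wound call in total RNA.

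**Figure D4:**
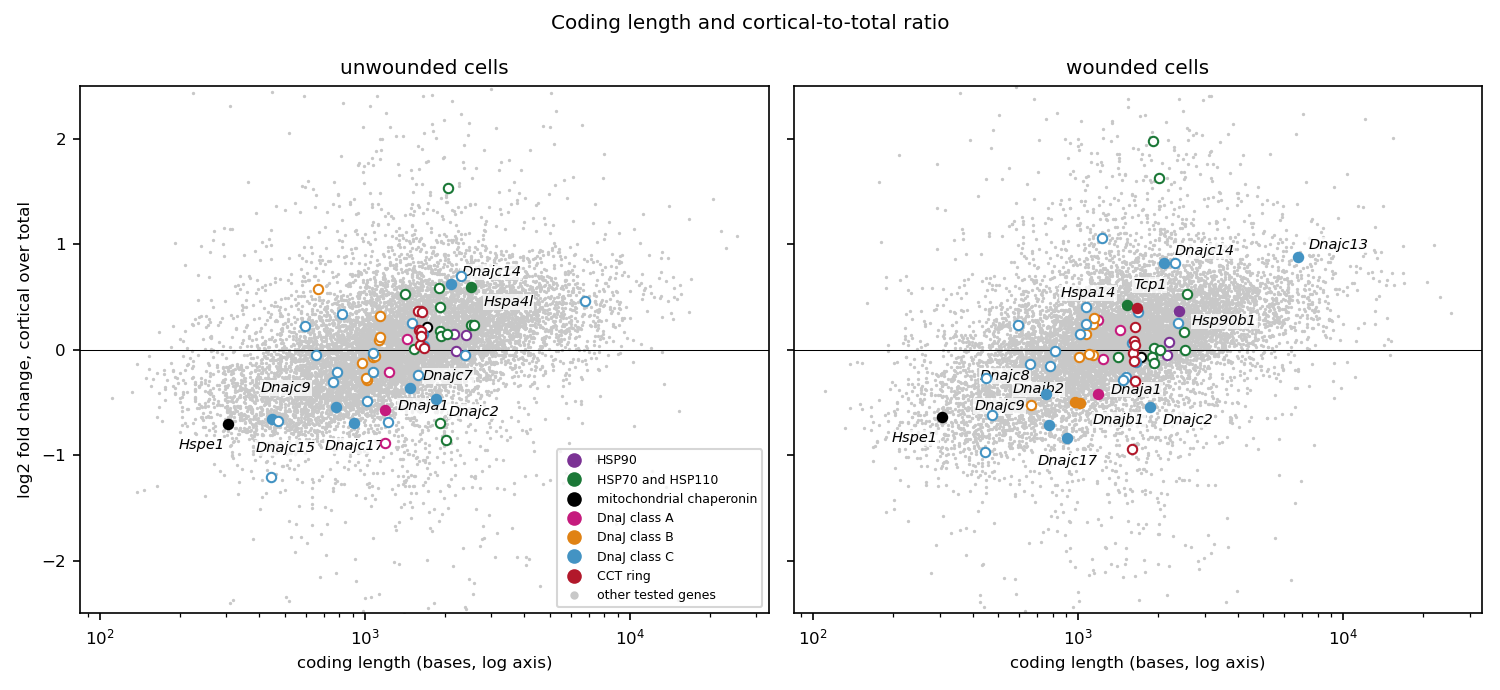
Coding length (horizontal, log axis) against the cortical over total log2 fold change (vertical) in unwounded and wounded cells, with tested genes in grey and members coloured by family, filled where called. Points beyond 2.5 on the vertical axis, among them Hspa12b in wounded cells, are not drawn, and Hspe1 is the called member with the shortest coding sequence.

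Genes that work with these chaperones were read from a list of 38 partners, of which 37 were tested: heat shock factors, co-chaperones of HSP90 and HSP70, Trap1, prefoldin and partners of the CCT ring. In unwounded cells 20 of the 37 passed, 3 higher and 17 lower in the cortical fraction, and in wounded cells 16 passed, 2 higher and 14 lower. Over all tested genes 14.2% passed in unwounded cells, 6.62% higher and 7.59% lower. In wounded cells 15.7% passed, 7.62% higher and 8.03% lower. Median log2 fold changes of the partners were -0.33 and -0.32, against 0.00 and 0.04 for all tested genes.

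Pfdn6, a prefoldin subunit that hands actin and tubulin to the CCT ring, had 214, 247 and 223 CPM in unwounded total and 130.4, 131 and 126 in unwounded cortical libraries. It had 233, 412 and 485 in wounded total and 164, 158 and 173 in wounded cortical libraries, and fractions did not overlap in either treatment. Pfdn6 fell by 0.82 (SE 0.18, adjusted p = 0.00607) in unwounded and by 1.19 (SE 0.18, adjusted p = 0.000699) in wounded cells. Nudc, an HSP90 co-chaperone of the dynein machinery, fell by 0.68 (adjusted p = 0.000287) and 0.85 (adjusted p = 0.000106), and Stub1, the ubiquitin ligase CHIP, by 0.71 (adjusted p = 0.000984) and 0.53 (adjusted p = 0.00613). On the higher side, Fnip2, an HSP90 co-chaperone that binds folliculin, was higher by 0.68 (adjusted p = 0.0118) and 0.80 (adjusted p = 0.00475). Hyou1, the large HSP70 relative of the endoplasmic reticulum, was higher by 0.37 (adjusted p = 0.0245) and 0.39 (adjusted p = 0.0215), and Trap1, the HSP90 of mitochondria, by 0.47 (adjusted p = 0.0132) in unwounded cells. Coding length was 381 bases for Pfdn6, 996 for Nudc and 912 for Stub1, and 3414 for Fnip2, 2997 for Hyou1 and 2118 for Trap1. The median of all tested genes was 1383. Of the 17 lower partners in unwounded cells, Hsf1 alone, at 1593 bases, was longer than this median. In wounded cells Stip1, at 1629 bases, was lower and also longer than it. The part of coding length in the partner calls was not tested.

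Several of these calls rested on single libraries. That of Fnip2 in unwounded cells was lost without replicate 2 of unwounded total (adjusted p = 0.0624), and that of Trap1 without replicate 1 or 2 of either unwounded group (0.0604 to 0.0709). For Hyou1, the unwounded call was lost without replicate 2 of unwounded total or replicate 2 or 3 of unwounded cortical (0.0556 to 0.130), and the wounded call without replicate 3 of wounded total or any 1 replicate of wounded cortical (0.0542 to 0.0811). With the gene length trend removed, the cortical calls of Stub1 (adjusted p = 0.0553 and 0.0842) and Hyou1 (0.137 and 0.346) were lost in both treatments.

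With wounding, 10 of the 37 partners passed in total RNA, 5 higher and 5 lower, and 0 in cortical RNA in edgeR, where 8 had an unadjusted p under 0.05. Over all tested genes 15.6% and 2.48% passed. Pfdn6 rose by 0.72 (SE 0.18, adjusted p = 0.0117) and Sil1, a nucleotide exchange factor of the endoplasmic reticulum, by 0.58 (SE 0.14, adjusted p = 0.00802). For Pfdn6 replicate 1 of wounded total, at 233 CPM, lay within the unwounded total range of 214 to 247. The other wounded total libraries lay above it, at 412 and 485. Pfdn4, another prefoldin subunit, fell by 0.79 (SE 0.15, adjusted p = 0.00183), and Ppid, a cyclophilin that binds HSP90, fell by 0.71 (SE 0.11, adjusted p = 0.000561). Hsf1, the main heat shock factor, fell by 0.35 (SE 0.11, adjusted p = 0.0362) and is named after its values were seen. The Pfdn6 call was lost without replicate 1 of unwounded total (adjusted p = 0.0523) or replicate 3 of wounded total (0.0601). In a fit on only the groups compared, the calls of Pfdn6 (0.0839) and Sil1 (0.0569) were lost. For the interaction, 0 of the 37 passed in edgeR and 3 had an unadjusted p under 0.05.

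**Figure D5:**
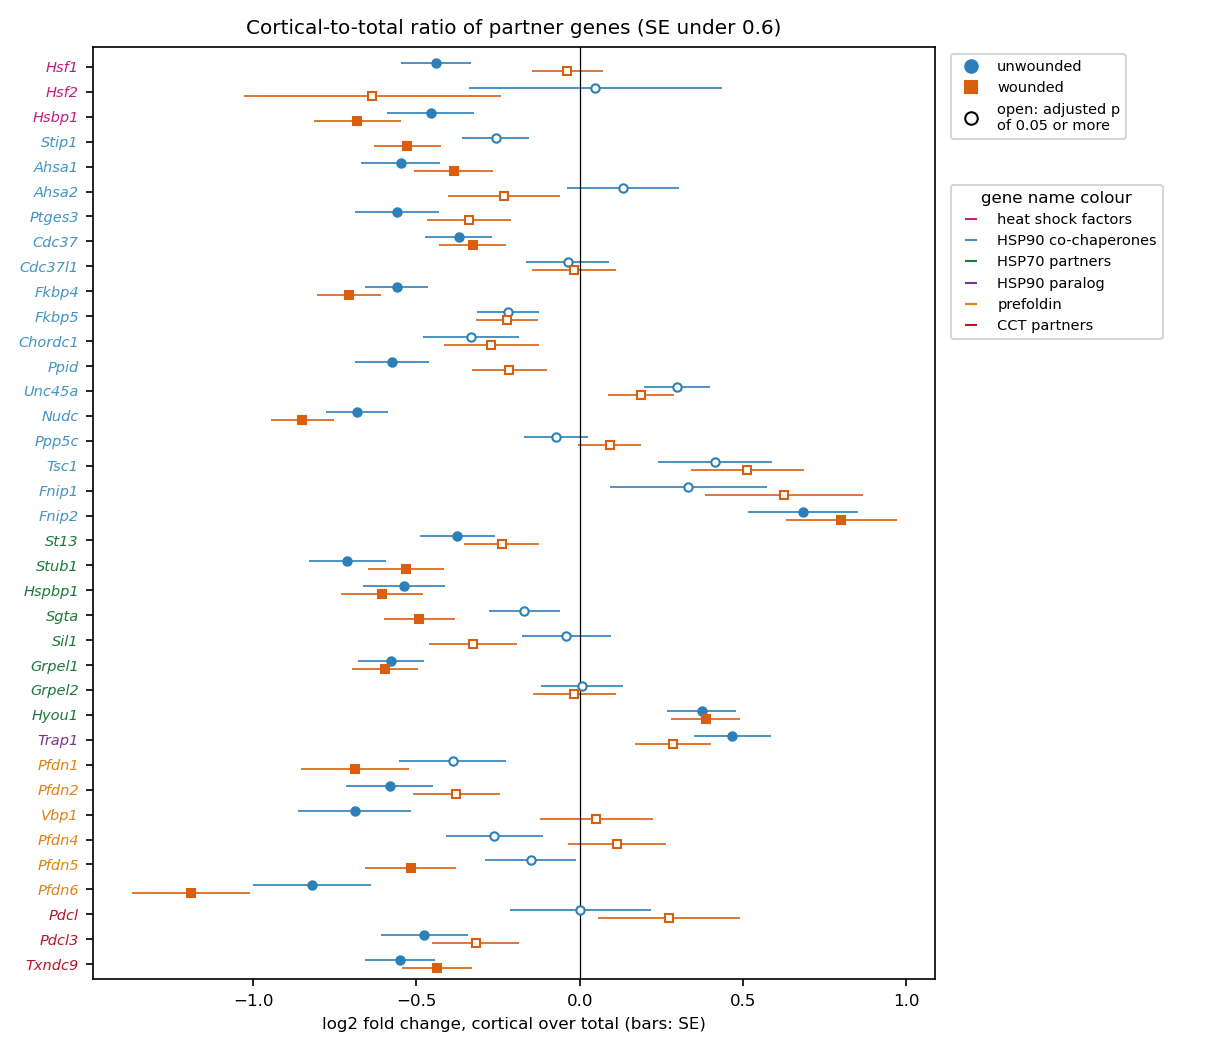
Log2 fold change of the cortical over the total fraction (horizontal axis, bars SE, 3 libraries a group) for the 37 tested partner genes, in unwounded (blue circles) and wounded cells (orange squares), filled where the test was passed. Most filled symbols, Pfdn6, Nudc and Stub1 among them, lie to the left of 0, and Fnip2, Hyou1 and Trap1 to the right.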

How the data were processed

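Translating RNA was sequenced from 12 libraries, 3 in each of 4 groups, with non-directional libraries per the labels' protocols. HISAT2, CASAVA and the mm10 build are named in the submitters' processing notes; the counting tool is not given in the sources used here. The authors deposited a table of whole-number read counts and a table of FPKM values per gene and library, where FPKM is the count scaled to merged exon length and to library size. Counts entered edgeR 4.0.16 (R 4.3.3): filterByExpr, TMM scaling, 1 quasi-likelihood fit with 4 group means over all 12 libraries, two-sided F tests for 5 contrasts, and Benjamini-Hochberg adjustment over 13571 genes with a threshold of 0.05. "Called" means past that threshold, and CPM uses TMM-scaled library sizes. A script tested on simulated counts did these fits. DESeq2 1.42.0, limma 3.58.1 on log2(FPKM + 1) or log2(FPKM + 0.1), other scalings and filters, a replicate block, a gene length trend and leaving out each library were alternatives. Named by rule are 21 core genes such as Hspa8 and the CCT subunits, for each comparison the called members that moved furthest (at most 6 higher and 6 lower, and 2 each among partners), and Dsp as a check. Members and lists were chosen with earlier results of these data known.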

Additional observations from a re-analysis of the deposited data

How the results depend on the processing

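All 51 called results of the named genes kept their direction under every alternative run, and 18 also kept the call under each. Scaling by library size alone ended the total-RNA wound calls of Hspa4, Cct4 and Dnajc1 and the wounded cortical call of Stub1, besides those given above. For counts of members called, library size alone gave 15 in place of 9 for the unwounded cortical comparison. Fits on only the groups compared gave 16 there, 4 in place of 11 for wounding in total RNA, and 5 in place of 3 for wounding in cortical RNA, where DESeq2 also gave 5. In the 3 fits on only the groups compared, 3014, 1175 and 1423 of all genes were called, in place of 1928, 2116 and 337. The 4 members called there for wounding in total RNA were all higher. The total-RNA wound calls of Hsp90aa1, Hsp90ab1, Hspa4, Tcp1, Cct4, Cct7, Dnajc9 and Dnajb5 were lost in that fit. In wounded cells such a fit ended the cortical calls of Hspe1, Hsp90b1 and Tcp1. Leaving out 1 library gave 4 to 16 members for the unwounded and 9 to 17 for the wounded cortical comparison, 5 to 21 and 1 to 6 for wounding in total and cortical RNA, and 0 to 2 for the interaction. The highest count in each of the 5 comparisons came without replicate 1 of wounded total, and the cause was not tested. Allowing 1 mismatch in the heat shock element gave 14 of 58 genes (24.1%) in place of 4, against 8.15% of all genes. With a replicate block, 10, 13, 9, 2 and 0 members were called in the 5 comparisons, which ended the total-RNA wound calls of Cct4 (adjusted p = 0.0502) and Dnajc9 (0.0550) and the cortical one of Hspa12b (0.0865). Same-numbered libraries deviated together only for wounding in total RNA (mean correlation 0.118, single values 0.150, 0.219 and -0.01), and the numbers are not taken as pairs. With 3 libraries a group, genes at a few CPM, such as Dnajb5 and Hspa12b, had wide errors. Protein sequence features were not run.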

Other observations

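Wounded total replicate 1 held counts for 57 of the 72 members, while the other libraries held 61 to 66. Without it, 16 members passed in the unwounded and 17 in the wounded cortical comparison, where 22.4% and 24.7% of all tested genes passed. Hspa8 then rose with wounding in total RNA by 0.32 (adjusted p = 0.00767) and Hspd1 by 0.35 (adjusted p = 0.00247). In that fit Hsp90aa1 fell by 0.34 (adjusted p = 0.0102) with wounding in cortical RNA.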
